A study of Mus musculus with 6 samples.

Results

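DNA methylation writers and erasers were examined as 9 genes: the methyltransferases Dnmt1, Dnmt3a and Dnmt3b, their partners Dnmt3l and Uhrf1, the TET dioxygenases Tet1, Tet2 and Tet3, and the thymine DNA glycosylase Tdg. They were picked by symbol, and all 9 were found among the 24421 gene entries of the table. All 9 also passed the filter on low counts, which left 14778 genes, and none had fewer than 298 counts in any library. Bulk RNA sequencing had been made of mouse induced pluripotent stem cells (iPSCs), somatic cells reprogrammed to a state like that of embryonic stem cells. The SRF KO group held 3 libraries of SRFΔ/Δ cells, in which the gene of the transcription factor serum response factor is deleted, and the WT group held 3 libraries of SRFf/f cells, which keep the loxP-flanked allele. Both were grown in medium with serum. How the gene was deleted, the number of clones and whether feeder cells were present are not given in the sources used here, so that p-values measure the spread between these libraries, which may be technical.

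Methylation of cytosine in CG dinucleotides (CpG) is set by Dnmt3a and Dnmt3b, for which the catalytically inactive Dnmt3l is a cofactor, and is copied after replication by Dnmt1, which Uhrf1 brings to half-methylated DNA. The TET enzymes oxidise methylcytosine, and Tdg cuts out the most oxidised forms so that base excision repair can restore an unmodified cytosine. In pluripotent cells both arms are active, and the balance between them is known to differ between the naive state and the primed state that precedes differentiation.

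The upstream DNA of the de novo methyltransferase family is shown because Dnmt3a rose, Dnmt3l fell and Dnmt3b did not pass the threshold. Each stretch is the 250 bases before an annotated start in RefSeq (GRCm38.p6), written in the direction of transcription, and capitals mark each CpG, the target of these enzymes. The 3 stretches overlap no exon of GENCODE M21. They are chr12:3806730-3806979 (plus strand) for Dnmt3a, chr2:153649199-153649448 (plus strand) for Dnmt3b, and chr10:78049592-78049841 (plus strand), an internal start of the gene, for Dnmt3l.
Dnmt3a: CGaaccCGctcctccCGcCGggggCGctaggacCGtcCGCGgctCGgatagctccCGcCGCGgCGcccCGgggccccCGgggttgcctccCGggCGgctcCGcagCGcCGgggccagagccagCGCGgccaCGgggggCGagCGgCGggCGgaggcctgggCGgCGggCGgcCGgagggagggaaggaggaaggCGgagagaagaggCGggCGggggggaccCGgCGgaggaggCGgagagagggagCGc
Dnmt3b: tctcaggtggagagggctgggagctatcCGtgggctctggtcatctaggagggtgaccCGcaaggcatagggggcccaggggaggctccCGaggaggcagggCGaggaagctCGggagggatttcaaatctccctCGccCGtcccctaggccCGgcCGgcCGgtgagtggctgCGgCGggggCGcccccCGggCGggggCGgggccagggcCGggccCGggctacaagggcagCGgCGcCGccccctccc
Dnmt3l: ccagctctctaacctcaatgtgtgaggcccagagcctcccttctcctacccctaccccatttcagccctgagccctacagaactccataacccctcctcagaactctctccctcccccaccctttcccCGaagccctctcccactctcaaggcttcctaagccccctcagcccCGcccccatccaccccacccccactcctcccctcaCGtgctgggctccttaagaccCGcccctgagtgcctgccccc

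The Dnmt3a stretch held 38 CpG, the Dnmt3b stretch 21 and the Dnmt3l stretch 4. Among all 32851 RefSeq windows the median was 6, and 98.1% held fewer than the Dnmt3a stretch, 83.7% fewer than that of Dnmt3b and 37.8% fewer than that of Dnmt3l. The other windows of Dnmt3a held 40 and 15 CpG before the start and those of Dnmt3l 5 and 3, so that every Dnmt3a start was richer in CpG than every Dnmt3l start. Of the other genes, Tet2 held 51 CpG, Tdg 19, Tet3 17 and Tet1 15. The windows of Uhrf1 held 10 and 30 and those of Dnmt1 2, 7 and 26. A link of CpG number to the direction of change was not tested. The counts per gene do not show which starts were used. The CArG box, the site that SRF binds, was searched on both strands in windows of 300 bases from 250 before to 50 after each start. It was found in 0 of the 16 windows of the 9 genes and in 1.63% of all windows. At so low a share, 0 of 16 windows cannot show that these genes lack the site. The window of Srf itself held one. These letters are only a description of these windows.

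In SRF KO, 5 of the 9 genes (55.6%) were called by edgeR (quasi-likelihood test, adjusted p under 0.05), against 42.4% of all genes tested. Dnmt3a and Tet3 rose, which is 2 of 9 against 21.2% of all genes in that direction. Dnmt3l, Dnmt1 and Uhrf1 fell, which is 3 of 9 against 21.3%. Dnmt3b, Tet1, Tet2 and Tdg did not pass. The same 5 genes were those whose SRF KO libraries did not overlap the WT libraries, a state found in 52.7% of all genes. The median log2 fold change of SRF KO over WT was -0.06 over the 9 genes and -0.01 over all genes, so that the set did not move one way. In bulk RNA, fewer cells of a type and less RNA per cell cannot be told apart.

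**Figure D1:**
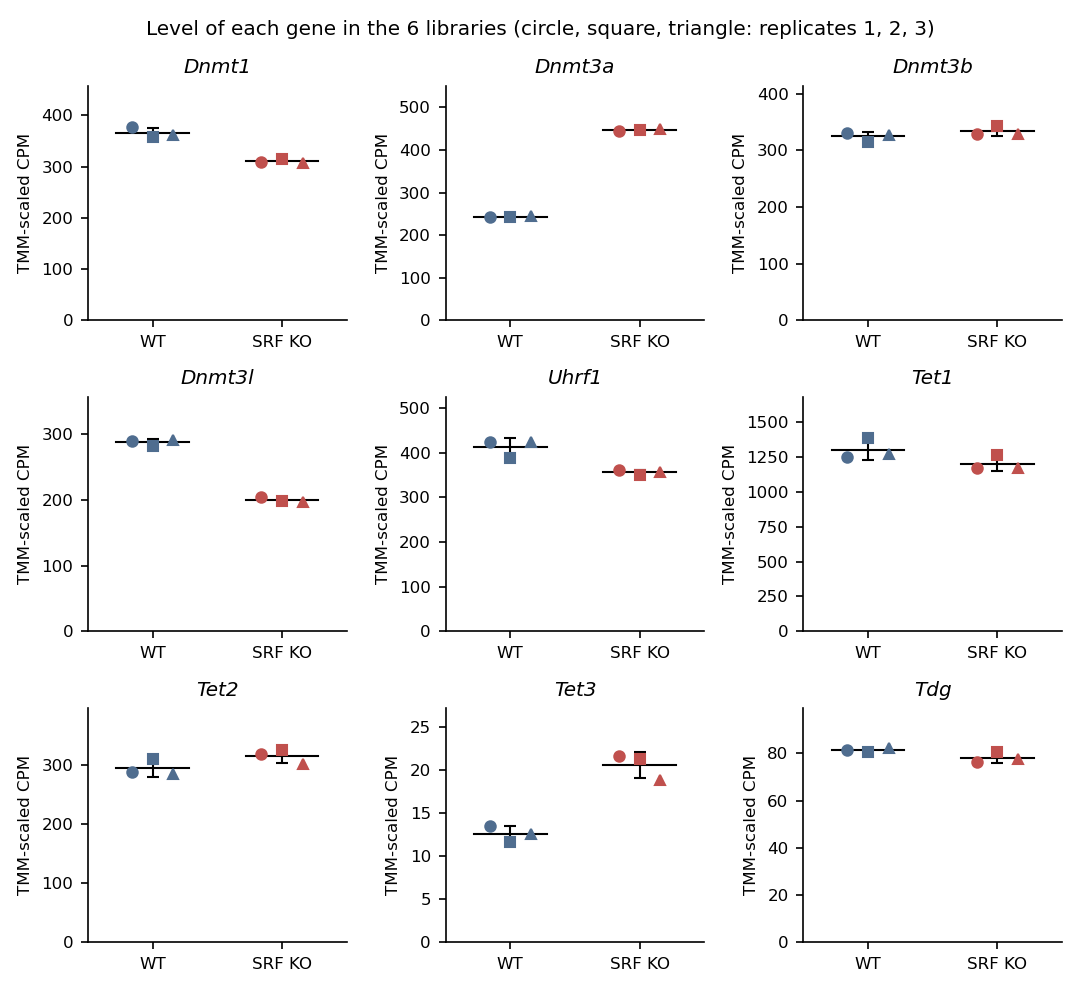
TMM-scaled counts (CPM) of each of the 9 genes on a linear axis from 0, with 1 point per library (circle, square and triangle for replicates 1, 2 and 3), the group mean as a line and the SD (n = 3) as a bar. The SRF KO libraries lie above all WT libraries for Dnmt3a and Tet3 and below them for Dnmt1, Dnmt3l and Uhrf1, and overlap them for the other 4 genes.

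Dnmt3a, one of the pair of catalytically active de novo methyltransferases, had the largest change. Its level was 445, 446 and 448 CPM (read counts divided by the TMM-scaled library size) in the SRF KO libraries and 243, 242 and 244 CPM in the WT libraries. All SRF KO libraries were high and the groups lay far apart. The means were 447 ± 1.46 and 243 ± 0.942 CPM (SD, n = 3), with a log2 change of 0.88 ± 0.04 (SE) and an edgeR adjusted p of 4.6e-08, or 1.84-fold. Of all genes tested, 6.85% had a higher fold change. The SD between replicates was 0.327% of the mean in SRF KO and 0.387% in WT, below the counting error of 0.903% and 1.17%, so that these SDs understate the error of the level.

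Dnmt3b, the other active de novo enzyme, stood at 329.8, 343 and 328 CPM in SRF KO and at 331, 315 and 328 CPM in WT. The groups overlapped. Its log2 fold change was 0.04 ± 0.05 (SE), at an edgeR adjusted p of 0.532, with a 95% interval from -0.06 to 0.14. The ratio of Dnmt3a to Dnmt3b within a library, in which library scaling cancels, was 0.602, 0.5798 and 0.609 in SRF KO and 0.328, 0.342 and 0.332 in WT when both were taken per kilobase of their longest coding transcript. The 3 SRF KO libraries were all higher. On the log2 scale the ratio differed by 0.84. An exact permutation test (two-sided, over 20 assignments of the libraries) gave p = 0.1, below which it cannot go with 3 against 3.

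Dnmt3l, which binds Dnmt3a and Dnmt3b and stimulates them, fell. It had 204, 198 and 197 CPM in SRF KO and 288, 282 and 291 CPM in WT, so that every SRF KO library was low. The means were 199 ± 3.89 and 287 ± 4.65 CPM (SD, n = 3), with a log2 change of -0.52 ± 0.05 (SE) and an edgeR adjusted p of 4.0e-06. SRF KO thus held 69.5% of the WT level, and 7.69% of all genes had a lower fold change. The 5′ end of Dnmt3l overlaps Aire on the opposite strand over 1664 bases in GENCODE M21 (GRCm38), and without knowledge of a strand setting reads of the pair cannot be told apart there. Aire, a regulator best known from thymic epithelium, had 303 to 355 counts in SRF KO and 551 to 959 in WT, with a log2 change of -1.07 and an edgeR adjusted p of 7.3e-06. These are between 5.79% and 9.68% of the Dnmt3l counts of the same library.

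Maintenance was represented by Dnmt1 and Uhrf1. Dnmt1, the maintenance methyltransferase, had 309.8, 315 and 308 CPM in SRF KO and 378, 358 and 361 CPM in WT. The highest SRF KO library lay below the lowest WT library. The log2 fold change was -0.24 ± 0.05 (SE), at an edgeR adjusted p of 0.0017, from 366 ± 10.4 to 311 ± 3.41 CPM (SD, n = 3), and 45.6% of all genes had a larger absolute fold change. Uhrf1, the reader of half-methylated CpG that recruits Dnmt1, had 361, 350.4 and 357 CPM in SRF KO and 424, 387 and 424 CPM in WT. WT replicate 2 lay closest to the SRF KO libraries but did not reach them. The log2 fold change of Uhrf1 was -0.21 ± 0.05 (SE), at an edgeR adjusted p of 0.0067, from 412 ± 21.2 to 356 ± 5.40 CPM (SD, n = 3). Both falls were thus small, at 85.0% and 86.5% of the WT level for Dnmt1 and Uhrf1, and their absolute size was close to the median of all genes, 0.21.

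Tet1, the TET enzyme with the highest level here, had 1171, 1265 and 1169.8 CPM in SRF KO and 1249.6, 1387 and 1267 CPM in WT. The groups overlapped, and replicate 2 was the highest library of both. The log2 fold change was -0.11 ± 0.06 (SE), at an edgeR adjusted p of 0.131, with a 95% interval from -0.24 to 0.01. Tet2, which lacks the CXXC domain that Tet1 and Tet3 use to bind CpG, had 318, 325 and 301 CPM in SRF KO and 287, 309 and 284 CPM in WT, again with overlap. Its log2 fold change was 0.10 ± 0.05 (SE), at an edgeR adjusted p of 0.149, with a 95% interval from -0.01 to 0.22. Of the alternatives without a replicate block, Tet2 passed the threshold without WT replicate 2, at 0.14 (edgeR adjusted p 0.00954), and with library totals in place of TMM, at 0.14 (edgeR adjusted p 0.0404), while its adjusted p was between 0.00954 and 0.353 over all alternatives.

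The ratio of Tet1 to Tet2 per kilobase was 2.35, 2.49 and 2.48 in SRF KO and 2.78, 2.87 and 2.85 in WT. It was lower in all 3 SRF KO libraries although neither gene passed the threshold by itself. The difference was -0.22 on the log2 scale, and the exact permutation test again gave its lower limit, p = 0.1.

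Tet3, the TET enzyme of the oocyte and zygote, was the least abundant of the 9. It had 21.6, 21.3 and 18.8 CPM in SRF KO and 13.5, 11.6 and 12.5 CPM in WT, so that the lowest SRF KO library was above the highest WT library. The means were 20.6 ± 1.52 and 12.5 ± 0.946 CPM (SD, n = 3), with a log2 change of 0.71 ± 0.09 (SE) and an edgeR adjusted p of 5.0e-05. Of all genes, 9.19% had a higher fold change. With 298 to 582 counts per library, counting error alone was 4.21% of the mean in SRF KO and 5.12% in WT, more than for any other of the 9 genes.

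Tdg, the glycosylase that removes formylcytosine and carboxylcytosine, had 76.4, 80.5 and 77.7 CPM in SRF KO and 81.5, 80.4 and 82.3 CPM in WT. The groups overlapped by a single pair of libraries. Its log2 fold change was -0.06 ± 0.05 (SE), at an edgeR adjusted p of 0.357, with a 95% interval from -0.16 to 0.05. Tdg shares 367 bases at its 3′ end with Glt8d2 on the opposite strand, which had 11 to 19 counts per library.

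**Figure D2:**
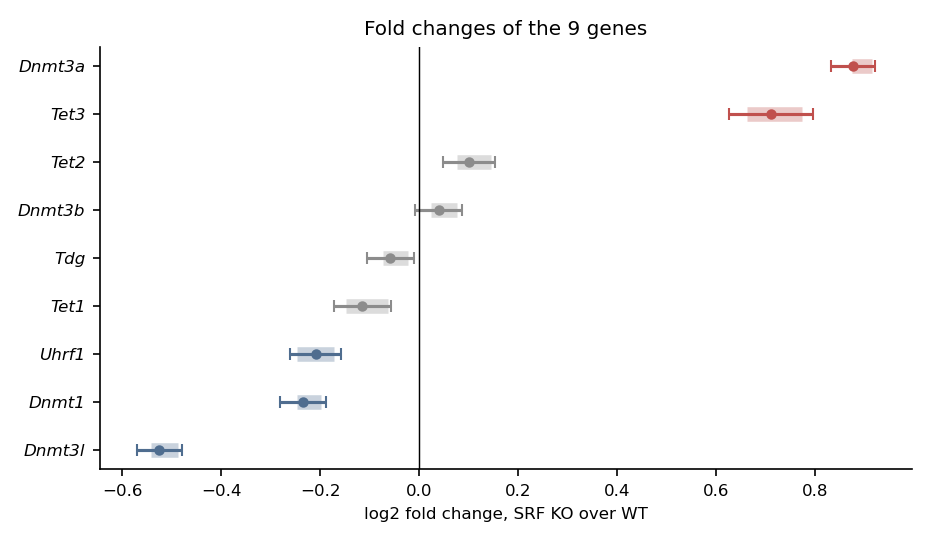
Log2 fold change of SRF KO over WT for the 9 genes, with the SE as a bar, and the lowest to highest value over the alternative analyses as a pale band (red, higher; blue, lower; grey, not past the threshold). Dnmt3a at 0.88 and Tet3 at 0.71 stand apart on the right and Dnmt3l at -0.52 on the left, and no band crosses 0.

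To compare genes with each other, levels were divided by the length of the longest coding transcript in GENCODE M21. On this scale, CPM per kilobase, the order in WT was Dnmt3l at 157 ± 2.55, Uhrf1 at 115 ± 5.92, Tet1 at 90.5 ± 5.20, Dnmt3b at 75.2 ± 1.88, Dnmt1 at 62.3 ± 1.77, Tet2 at 31.97 ± 1.49, Dnmt3a at 25.1 ± 0.0972, Tdg at 23.2 ± 0.269 and Tet3 at 1.15 ± 0.0867 (SD, n = 3). No 2 neighbours in this order overlapped in their ranges over libraries. In SRF KO the order was the same except that Dnmt3a, at 46.1 ± 0.151 CPM per kilobase, stood above Tet2, at 34.3 ± 1.35 (SD, n = 3), and again no neighbours overlapped. Dnmt3a has 13 annotated coding transcripts and starts that give shorter ones, so that its place depends on the length of 9685 bases used for it, whereas its fold change does not.

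Within the 3 methyltransferases, the share of Dnmt3a in the summed level per kilobase was 26.3%, 25.7% and 26.5% in SRF KO and 15.1%, 15.7% and 15.5% in WT. The share of Dnmt1 was 29.9% to 30.1% over the SRF KO libraries and 37.8% to 38.7% over the WT libraries, and that of Dnmt3b 43.5% to 44.4% and 45.9% to 46.7%. A share falls when another enzyme of the sum rises, so that these shares do not show a fall in level. In CPM per kilobase, Dnmt3b had 77.3 in SRF KO and 75.2 in WT, and Dnmt1 had 52.9 and 62.3. The shares also depend on the length used for Dnmt3a. The summed level of the 3 was 176 ± 2.45 (SRF KO) and 163 ± 3.47 (WT) CPM per kilobase (SD, n = 3), without overlap of the libraries. Within the TET enzymes, Tet1 took 69.8% ± 0.721 in SRF KO and 73.2% ± 0.381 in WT, Tet2 28.6% ± 0.632 and 25.9% ± 0.2796, and Tet3 1.58% ± 0.0955 and 0.933% ± 0.114 (SD, n = 3). Their summed level was 119.8 ± 4.94 (SRF KO) and 124 ± 6.58 (WT) CPM per kilobase (SD, n = 3), with overlap.

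The ratio of the summed methyltransferases to the summed TET enzymes was 1.48, 1.43 and 1.51 in SRF KO and 1.39, 1.21 and 1.35 in WT. It was higher in all 3 SRF KO libraries, by 0.16 on the log2 scale, and the exact permutation test gave p = 0.1, its lower limit. This balance rested on the choice of genes: with Uhrf1 and Dnmt3l added to the first sum and Tdg to the second, it turned to -0.13 (p = 0.3 in the same exact test). It was 0.10 without WT replicate 2 and 0.29 without division by length.

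**Figure D3:**
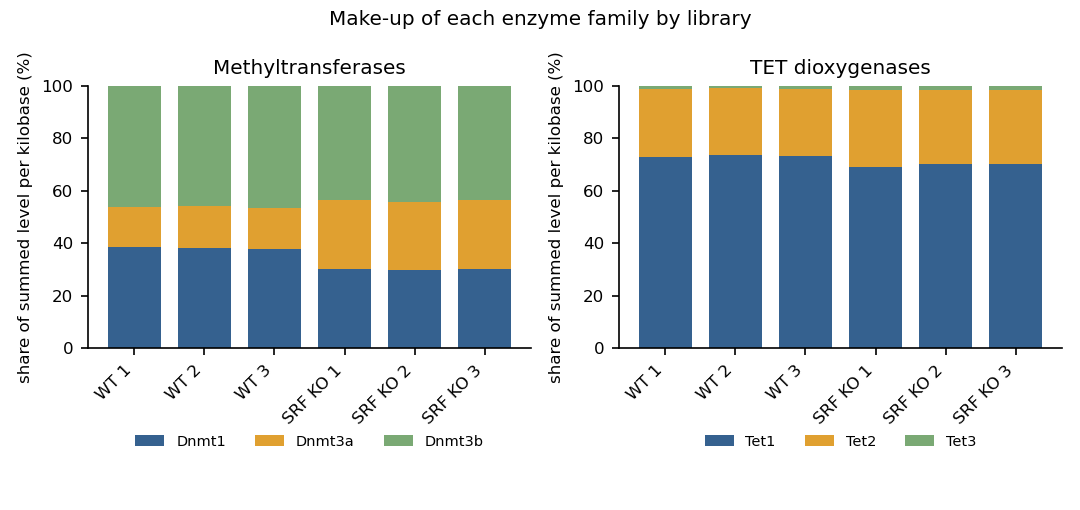
Share of each enzyme in the summed level per kilobase of its family, in percent, with 1 stacked bar per library (left, Dnmt1, Dnmt3a and Dnmt3b; right, Tet1, Tet2 and Tet3). The Dnmt3a share is between 25.7% and 26.5% in SRF KO and between 15.1% and 15.7% in WT, while Tet1 holds most of the TET level in every library.

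The title of the series concerns expression noise, and the spread of the 9 genes between replicates is given only as a description. It is a spread between bulk libraries and does not measure variation between cells. The SD of log2 CPM was larger in WT for 6 of 9 genes and larger in SRF KO for 3 of 9, which were Dnmt3l, Tdg and Tet3. In SRF KO and WT it was nearly equal for Tet3 (0.1092 and 0.1091) and Dnmt3b (0.0357 and 0.0363). The same share over all genes is not given here. For Uhrf1 the coefficient of variation was 1.52% in SRF KO and 5.16% in WT, and for Dnmt1 1.10% and 2.84%. For Tdg it went the other way, with 2.67% in SRF KO and 1.16% in WT. Counting error was 1.08% for Dnmt1 in SRF KO, close to its 1.10%. For Tdg, counting error was 2.16% in SRF KO and 2.02% in WT. The Uhrf1 levels in WT were 424, 387 and 424 CPM, the low value being that of WT replicate 2. That library also lay apart from the other WT libraries on the second principal component. For Tet1 and Tet2 it was between 3.93% and 5.74% in both groups, above their counting error of 0.506% to 1.08%. With 3 libraries per group, no exact test of these differences could pass 0.05.

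The genes whose pattern over the 6 libraries was most like that of Dnmt3a and of Dnmt3l were found by the root mean square difference of log2 CPM after centring each gene, among 9085 genes with a mean of at least 10 CPM. For Dnmt3a they were Glul, Bmp4 and Gbx2, with differences of 0.032, 0.035 and 0.036 and log2 fold changes of 0.93, 0.90 and 0.91. For Dnmt3l they were Klf4, Arhgap8 and Gab1, with differences of 0.018, 0.023 and 0.025 and log2 fold changes of -0.52, -0.52 and -0.53. Klf4, a naive pluripotency factor, went from 649, 612 and 651 CPM in WT to 449, 443 and 441 CPM in SRF KO. These likenesses are set mostly by the difference between the groups.

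The surroundings of the 9 genes were described with 6 lists of 98 other genes, of which 94 were tested. In all, 13 were higher and 33 lower, together 48.9% of those tested against 42.4% of all genes. Of all genes, 21.2% were higher and 21.3% lower. The lists were chosen with earlier results of these data known. Falls outnumbered rises in each of the alternatives run, but the numbers moved. They were 6 higher and 21 lower without SRF KO replicate 1, and 8 higher and 23 lower without SRF KO replicate 3. Calls over all genes moved as well, from 6273 to 4731, 5383 and 4769 without SRF KO replicates 1, 2 and 3. Without WT replicates 1, 2 and 3 they were 5037, 7461 and 5930. Calls gained or lost below when a library was left out are to be read beside these numbers.

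Of 19 partners that target or maintain methylation, 1 was higher, 4 were lower and 14 did not pass, so that 26.3% were called against 42.4% of all genes, with a median log2 fold change of -0.05. Kdm1b, a histone demethylase needed for methylation of imprinted loci in oocytes, fell by 0.41 on the log2 scale (edgeR adjusted p 0.00091), from 23.7 ± 1.10 to 17.8 ± 0.998 CPM (SD, n = 3). Cdca7l, a relative of the Hells cofactor Cdca7, and Smchd1, a chromatin protein of the inactive X chromosome, fell by 0.22 and 0.21 on the log2 scale, and Setd2, a histone methyltransferase whose mark is bound by the de novo enzymes, rose by 0.22. These 3 were weak calls by edgeR. Cdca7l did not pass without SRF KO replicate 1 (-0.19), and Smchd1 did not without SRF KO replicate 1 (-0.21) or 3 (-0.19) nor with library totals in place of TMM (-0.18). Of the 6 fits that each left out a library, Setd2 passed only in the one without WT replicate 2 (0.31). Without that library Smchd1 stood at -0.12 and passed.

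Of 14 antagonists and cofactors of methylation or of the TET enzymes, 1 was higher, 6 were lower and 7 did not pass, which is 50.0% called, near the 42.4% of all genes, with a median of -0.10. Dppa3 (Stella), which keeps Uhrf1 away from chromatin, had 7.77, 7.78 and 7.12 CPM in SRF KO and 32.3, 34.1 and 29.6 CPM in WT, with a log2 change of -2.08 ± 0.08 (SE) and an edgeR adjusted p of 6.2e-09. Its SRF KO libraries all lay far below the WT libraries. Nanog, a pluripotency factor that binds Tet1, fell by 0.79 on the log2 scale, and Cxxc5, a CXXC protein related to the one encoded next to Tet2, fell by 0.68. Kdm2b, which binds unmethylated CpG islands, rose by 0.39, from 159.9 ± 4.77 to 209 ± 1.06 CPM (SD, n = 3). Prdm14, a repressor of the de novo methyltransferase genes in naive cells, had 10.6, 8.50 and 10.4 CPM in SRF KO and 15.7, 14.7 and 17.2 CPM in WT, with a log2 change of -0.69 and an edgeR adjusted p of 0.00021. Prdm14 was outside the rule for named genes and was named after its value was seen, because of this role.

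Of 19 excision repair and deamination genes, 10 were lower, 4 higher and 5 not past the threshold, which is 73.7% called against 42.4% of all genes, with a median of -0.24. Neil2, a glycosylase that can act beside Tdg, fell by 0.77 on the log2 scale, Lig1, a DNA ligase, by 0.30, and Apobec3, a cytidine deaminase that restricts retroviruses, by 0.71. Apobec2, a member of the same deaminase family best known from muscle, rose from 3.31, 2.95 and 3.24 CPM in WT to 14.2, 13.4 and 15.2 CPM in SRF KO, with a log2 change of 2.16 ± 0.10 (SE) and an edgeR adjusted p of 2.1e-08. The 4 rises became 1 without any one of the SRF KO libraries, Apobec2 being the rise that passed in each. Of the core repair enzymes downstream of Tdg, Parp1 and Lig3 were lower by 0.24 and 0.15, Apex1 was higher by 0.14, and Xrcc1 and Polb stood at -0.12 and -0.08 without passing (edgeR adjusted p 0.18 and 0.33). These 5 were named after their values were seen.

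Of the 7 methyl-CpG readers, which bind methylated DNA, 3 were higher, 0 were lower and 4 did not pass, a called share of 42.9% that is close to the 42.4% of all genes, with a median of 0.05. At an unadjusted p under 0.05 edgeR also gave 0 lower, as did DESeq2 and limma at the adjusted threshold. Zbtb4 rose by 0.86 (SE 0.12, edgeR adjusted p 0.00015), from 6.14 ± 1.05 to 11.2 ± 0.804 CPM (SD, n = 3). Mbd1 and Mbd2 rose by 0.28 and 0.27. Mbd1 did not pass when WT replicate 3 (0.23) or replicate 1 (0.25) or 3 (0.24) of SRF KO was left out. Mbd2 did not pass when WT replicate 1 (0.20) or any of replicates 1 (0.27), 2 (0.26) and 3 (0.27) of SRF KO was left out.

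Of 19 genes of the metabolism of the methyl donor or of the TET cofactor 2-oxoglutarate, 3 were higher, 8 lower and 8 not past the threshold. This is 57.9% called against 42.4% of all genes, with a median of -0.03. Not all of them supply the methyl donor or 2-oxoglutarate. Mat2a, which makes S-adenosylmethionine, rose from 278 ± 7.69 to 406 ± 13.2 CPM (SD, n = 3), with a log2 change of 0.55 and an edgeR adjusted p of 4.8e-06. Mtr, the methionine synthase, fell by 0.27. Idh2, the mitochondrial isocitrate dehydrogenase that makes 2-oxoglutarate, fell from 126 ± 7.02 to 67.3 ± 2.15 CPM (SD, n = 3), with a log2 change of -0.91 and an edgeR adjusted p of 2.4e-07. Leaving out SRF KO replicate 1 left 3 of the falls, leaving out SRF KO replicate 3 or WT replicate 1 left 4, and leaving out WT replicate 3 left 5. In the same order, calls over all genes went from 6273 to 4731, 4769, 5037 and 5930.

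Germline genes known to be silenced by promoter methylation were listed as well. Of 20 such genes, 16 were tested, with 1 higher, 5 lower and 10 not past the threshold, a called share of 37.5% that is below the 42.4% of all genes, and a median of -0.09. Sycp3, Mael and Stag3, genes of meiosis and of the piRNA pathway, fell by 0.80, 0.44 and 0.29. Rpl10l, a retrogene copy of Rpl10 whose reads can be shared with its parent, rose by 0.69. Dazl and Ddx4, named after their values were seen, stood at 0.28 and -0.17 (edgeR adjusted p 0.059 and 0.081). There were 4 rises without WT replicate 2, and 3 falls when SRF KO replicate 1 or 3 was left out. DNA methylation itself was not measured in these libraries.

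**Figure D4:**
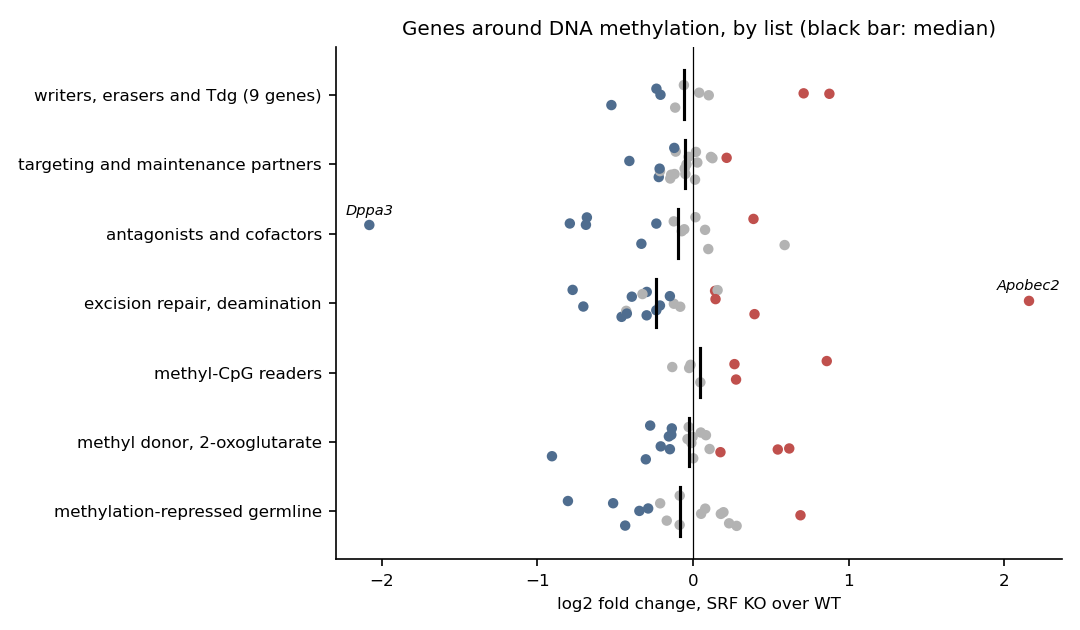
Log2 fold change of SRF KO over WT for the 9 genes and for the tested genes of the 6 surrounding lists, 1 point per gene (red, higher; blue, lower; grey, not past the threshold), with the median of each list as a black bar; vertical scatter has no meaning. The medians lie between -0.24 and 0.05, and Dppa3 at -2.08 and Apobec2 at 2.16 are the outermost points.

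Facts of the whole series touch these values. Total counts were between 26321602 and 36680156 per library, and Srf, the targeted gene, had 84 to 131 counts in SRF KO and 765 to 1326 in WT. On the second principal component (10.4% of the variance) WT replicate 2 lay apart from the other WT libraries. Of 12 pluripotency markers, 1 was higher and 7 were lower, with a summed level of 6072 to 6163 CPM in SRF KO and 7349 to 7894 in WT, none at 0. Of 13 extraembryonic endoderm markers, all 12 tested were higher, with 1582 to 1705 CPM against 129.6 to 141 (Ttr at 0 in every WT library). All 12 fibroblast markers were higher, with 1138 to 1373 CPM against 556 to 641, none at 0. Of 6 primed epiblast markers 3 were higher and 2 lower (87.6 to 92.7 CPM against 113 to 125), and of 7 trophoblast markers 5 were tested and 2 were lower (52.2 to 54.9 CPM against 87.8 to 97.2, with Tpbpa at 0 throughout). The part of these shifts in cell-type markers in the changes of the 9 genes was not tested.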

How the data were processed

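Bulk RNA sequencing of mouse iPSCs gave 6 libraries, 3 per group, grouped by their titles. The authors deposited counts of paired reads of 150 bp per gene and per transposable element subfamily, without normalization, as judged from the values; adaptor, low-quality and empty reads had been removed, per the labels' protocols. The submitters' processing notes name mm10 and DESeq2 without a role. The aligner, the counting program and its strand setting are not given in the sources used here.

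All entries were fitted together with edgeR 4.0.16 (R 4.3.3): filterByExpr with a minimum count of 10, TMM scaling, the quasi-likelihood test of SRF KO against WT, and Benjamini-Hochberg adjustment over all 15611 entries, at 0.05. CPM are TMM-scaled. Alternatives were DESeq2 1.42.0, limma 3.58.1 with voom, other scalings, no filter, other thresholds, a replicate block and leaving out each library. The scripts were tested on simulated data. Ratios within a library had exact permutation tests. Lengths came from GENCODE M21 (GRCm38) and promoter windows from RefSeq (GRCm38.p6), with a window for all 9 genes. Intervals and counting errors cover only the model's or counting error. The 9 genes and all lists were chosen with earlier results of these data known. The genes named are the 9, Srf, in each list the 4 called genes of smallest p (or fewer), and the 3 genes most like the largest rise and the largest fall; others are marked as chosen after their values were seen. Some genes of the lists are counted but not reported here by name.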

Additional observations from a re-analysis of the deposited data

How the results depend on the processing

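The direction and the call of Dnmt1, Dnmt3a, Dnmt3l, Uhrf1 and Tet3 were the same in all 15 alternatives run for each, with log2 fold changes of -0.25 to -0.20, 0.87 to 0.91, -0.54 to -0.49, -0.25 to -0.17 and 0.66 to 0.77. With a change of 0.5 or more on the log2 scale also required, the genes lower among the 9 were 1, by construction of that threshold. Dnmt3b and Tdg passed in no alternative. The context genes higher were between 6 and 18 and those lower between 21 and 39 when each replicate was left out in turn. Calls over all genes were then between 4731 and 7461. The context genes were 7 higher at an adjusted p of 0.01, and 5 higher and 9 lower where a log2 change of 0.5 was also required. Stricter thresholds lower counts by construction. The balance of summed methyltransferases to summed TET enzymes was 0.29 without division by length and reversed to -0.13 with Uhrf1, Dnmt3l and Tdg added, where the genes summed differ by construction. Replicate numbers were not taken as pairs. Deviations from the group means correlated at 0.042, 0.203 and 0.096 between libraries with the numbers 1, 2 and 3, and replicates 2 and 3 of SRF KO, but not replicate 1, correlated best with the WT library of their own number. With the replicate block, Tet1 (-0.11, edgeR adjusted p 0.0149) and Tet2 (0.10, edgeR adjusted p 0.0347) also passed. This gave 3 higher and 4 lower among the 9 and 17 higher and 40 lower among the context genes. Over all 14778 genes the block likewise raised the calls, from 6273 to 7512. Depth limits Tet3 most, with 298 counts in its lowest library.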
